A study of Mus musculus with 6 samples.

Results

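The genes described here are 8 genes by which liver cells take up glucose and fructose, commit them to glycolysis and read the sugar supply at the level of transcription. They were chosen by name: the hexose transporter Slc2a2, the regulatory protein Gckr, the fructose kinase Khk, the glycolytic enzymes Pfkl, Pfkfb1 and Pklr, the sugar-responsive transcription factor Mlxipl and its target Txnip. All 8 were found among the 20673 genes of the tables, and all 8 were among the 13105 genes with enough counts to be tested. Their levels were measured by RNA-seq in 6 libraries of whole liver from C57BL/6J mice. In 3 libraries the mice had received a regular diet (RD) and in 3 a high-cholesterol diet (HCD), which carried cocoa butter, cholesterol and the bile salt sodium cholate, in each case for 3 days. Neither group had undergone the sepsis surgery used elsewhere in the study, and no genetic change is named for either. By the study's account its C57BL/6J mice were about 3 months old, and the labels give no age for each library. Male and female mice were used, with free access to food. By the study's account the HCD differed from the RD in fat, cholesterol and cholate at once, so that their parts cannot be told apart. The study gives no sugar or starch content for either diet, so whether the diets differed in these is not known.

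Glucose and fructose enter the hepatocyte mainly through GLUT2, the product of Slc2a2, a transporter of high capacity that lets the sugar level in the cell follow that of the portal blood. The protein made from Gckr sits in the nucleus and restrains the use of glucose until glucose or fructose 1-phosphate rises. Fructose is phosphorylated by ketohexokinase (Khk) and passes around the phosphofructokinase step. Sugar phosphates activate ChREBP, the product of Mlxipl, which pairs with Mlx and binds carbohydrate response elements made of a pair of E-box-like sites near genes such as Pklr and Txnip. The liver is the tissue in which this route is best known, as it links a sugar-rich meal to glycolysis and fatty acid synthesis.

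The promoters in which a match was found are shown first, since such elements are the sequences to which ChREBP is known to bind. The 250 bases before each RefSeq start site of the 8 genes, 13 windows in all, were searched on both strands for the E-box CACGTG and for a relaxed carbohydrate response element, defined as CACGNG and CNCGNG with 5 bases between them. The sequences are those of RefSeq on GRCm38.p6, and the capitals mark the match. The relaxed element was present in the promoter of Pklr (chr3:89136373-89136622, plus strand, the downstream of its 2 start sites) and in that of Txnip (chr3:96557707-96557956, plus strand):
Pklr: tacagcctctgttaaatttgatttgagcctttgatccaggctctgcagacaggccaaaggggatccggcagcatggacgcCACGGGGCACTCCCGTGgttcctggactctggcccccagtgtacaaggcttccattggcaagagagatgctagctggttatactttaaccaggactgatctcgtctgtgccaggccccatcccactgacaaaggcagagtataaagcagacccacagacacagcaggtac
Txnip: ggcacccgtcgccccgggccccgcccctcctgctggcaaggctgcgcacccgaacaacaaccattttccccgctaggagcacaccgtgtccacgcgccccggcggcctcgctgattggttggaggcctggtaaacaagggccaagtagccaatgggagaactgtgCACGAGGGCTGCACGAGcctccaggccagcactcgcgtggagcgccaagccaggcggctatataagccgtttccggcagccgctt
The match lay at positions -170 to -154 from the start site in Pklr and at -85 to -69 in Txnip. Of all 32851 promoter windows of this length, 0.28% held the relaxed element. It was in 0 of 15 other ChREBP partners and targets and 0 of 37 other glycolysis and pyruvate genes that had a window. The plain E-box, a single site and not the paired element, was present in Khk (chr5:30921309-30921558, plus strand) and in the upstream of the 2 start sites of Mlxipl (chr5:135089640-135089889, plus strand):
Khk: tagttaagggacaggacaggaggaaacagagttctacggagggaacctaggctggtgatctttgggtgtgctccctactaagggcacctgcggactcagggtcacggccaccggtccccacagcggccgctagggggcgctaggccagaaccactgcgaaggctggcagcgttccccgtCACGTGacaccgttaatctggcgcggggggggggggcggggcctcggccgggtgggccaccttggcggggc
Mlxipl: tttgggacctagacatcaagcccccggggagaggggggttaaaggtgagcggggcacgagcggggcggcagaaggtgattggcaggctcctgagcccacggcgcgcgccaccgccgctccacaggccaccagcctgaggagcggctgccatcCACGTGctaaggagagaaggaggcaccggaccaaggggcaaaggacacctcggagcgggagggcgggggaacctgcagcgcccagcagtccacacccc
It lay at -71 to -66 in Khk and at -98 to -93 in Mlxipl, and 6.02% of all windows and 6.86% of genes held it. Of other genes that had a window, the E-box was in 3 of 15 ChREBP partners and targets. It was also in 7 of 37 glycolysis and pyruvate genes and in 2 of 13 genes of hexose entry and breakdown. The upstream start of Mlxipl lies 17001 bases from the downstream one. The gene is known to give a shorter and more active form, ChREBP-beta, from an upstream first exon, and counts per gene do not separate the forms. No match was found in the windows of Slc2a2, Gckr, Pfkl and Pfkfb1. A match is a description of the letters, and binding was not measured.

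The libraries held between 13771630 and 23129576 counts under RD and between 13935491 and 18545549 under HCD. Levels below are given as CPM, counts scaled to library size with TMM factors, when the same gene is compared between libraries, and as FPKM, which divides by gene length, when genes are compared with each other. Of the tested genes 428, or 3.27%, were called at an adjusted p under 0.05 by the edgeR quasi-likelihood test, 255 of them higher and 173 lower under HCD. With library sizes alone the split was 158 higher and 161 lower, and with upper-quartile factors 291 and 156. Before adjustment 20.9% of the tested genes had p of at most 0.05, and DESeq2 called 6.97% of the genes it adjusted over, the shares against which the counts in the marker lists stand. HCD replicate 1 was the only library with counts of Xist (5032), the RNA of the inactive X chromosome, and the only one with 0 counts of all 4 Y-linked genes read, so that this library differed in sex from the other 5. Among the marker lists, all 10 tested Kupffer cell markers had positive log2 fold changes, with Cd68 called, 5 at p of at most 0.05 before adjustment, 4 called by DESeq2 and a median of 0.86, and their summed level was 158 to 258 CPM under RD and 218 to 473 CPM under HCD. The 5 tested red cell genes, 4 higher and 1 lower, had a median log2 fold change of 2.28 with Hba-a1 and Hbb-bs called, 3 at p of at most 0.05 before adjustment and 3 called by DESeq2, and summed to 138 to 239 CPM under RD and 177 to 468 CPM under HCD. The 9 tested hepatocyte markers had a median of -0.23 with none called by edgeR, 2 with p of at most 0.05 before adjustment and 2 called by DESeq2, and summed to 100708 to 132344 CPM under RD and 106412 to 147163 CPM under HCD. Of 3 tested leukocyte, 10 endothelial, 10 stellate and 7 cholangiocyte markers edgeR called 0, with 0, 3, 2 and 0 of them at p of at most 0.05 before adjustment and 0, 1, 0 and 0 called by DESeq2. Of these, 3, 8, 10 and 5 had positive log2 fold changes, with medians of 0.10, 0.29, 0.50 and 0.60. Of the zonation lists, Ces1d was called among 14 pericentral and Hsd17b13 among 16 periportal genes, and both rose under HCD. Of the pericentral genes 6 were higher and 8 lower (median -0.17) with 3 called by DESeq2, and of the periportal genes 8 were higher and 8 lower (median 0.0066) with 1 called by DESeq2. In whole liver, fewer cells of a type and less RNA per cell cannot be told apart.

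None of the 8 genes passed the test between the diets. By edgeR 0 of 8 were called, against 3.27% of all genes tested. Before adjustment 2 had p of at most 0.05, Khk and Pfkfb1, against 20.9% of all genes. The same pair was called by DESeq2, which called 6.97% of the 14223 genes it adjusted over, and limma on the FPKM values called 0 of 8. Only Pfkfb1, 1 of the 8, had no overlap between the RD and HCD libraries, against 27.6% of all genes. The median log2 fold change of the 8 was 0.072 beside 0.0074 over all genes tested, with 4 above and 4 below 0, and it was -0.069 without HCD replicate 1 and 0.29 without HCD replicate 2. Nothing in the labels ties each library to an animal of its own, so the p-values measure the spread between these libraries.

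**Figure D1:**
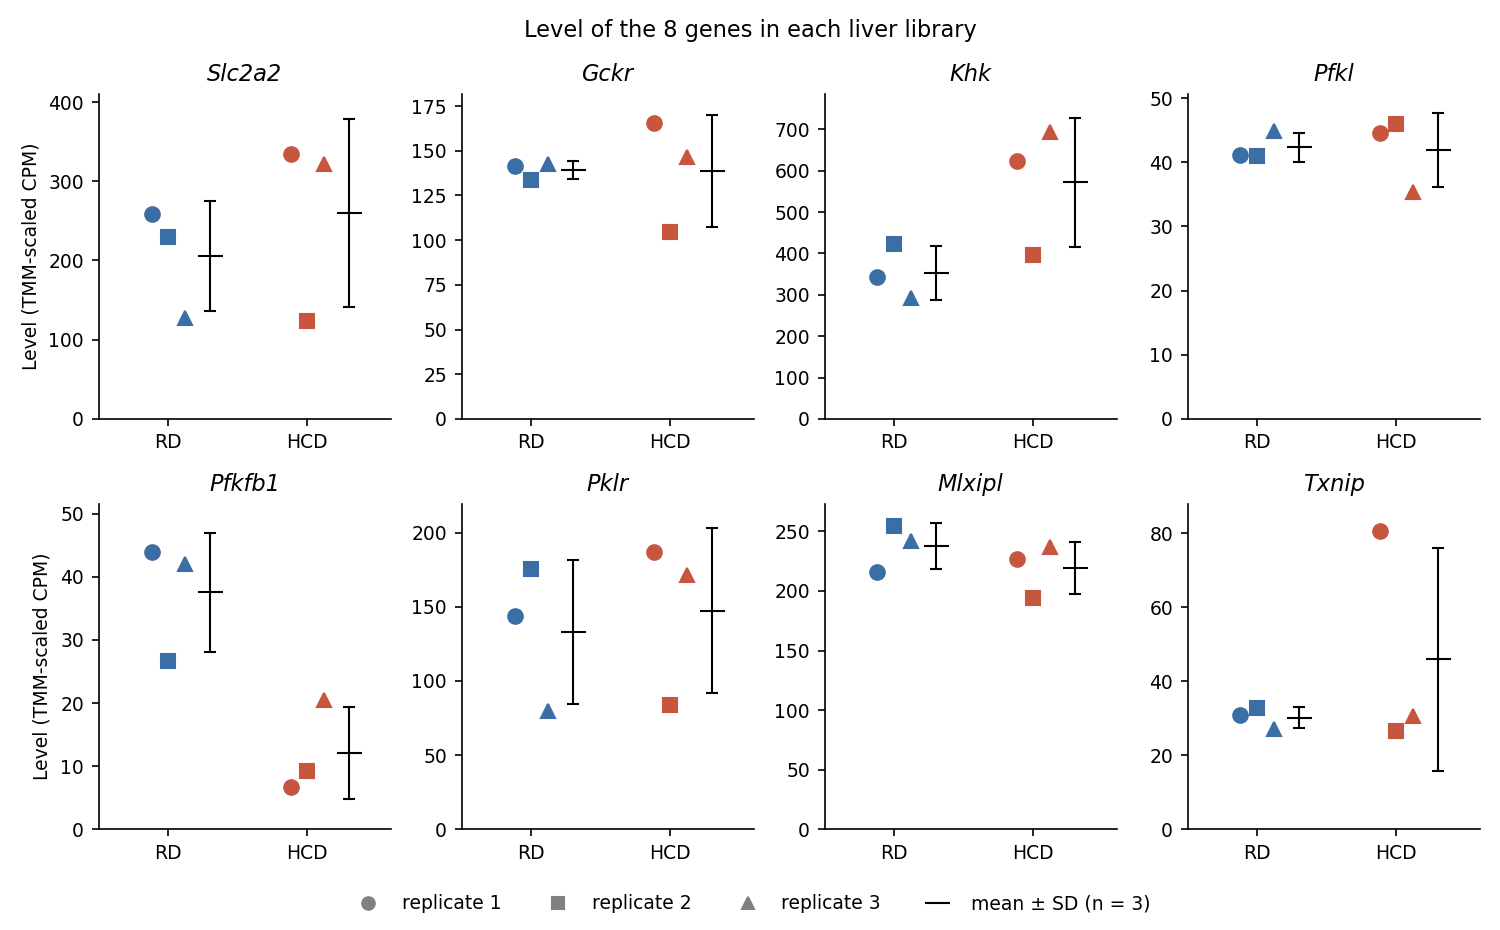
Level in TMM-scaled CPM (vertical axes, from 0) of each of the 8 genes in the 3 RD and 3 HCD libraries, with the symbol giving the replicate number and the bar the mean ± SD. Pfkfb1 is the panel in which the diets do not overlap, and Txnip stands high in HCD replicate 1 alone.

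Slc2a2 (ENSMUSG00000027690, chr3:28697903-28731359, plus strand) encodes the GLUT2 transporter. Its level was 259, 230 and 127 CPM in RD replicates 1 to 3 and 335, 123 and 322 CPM in HCD replicates 1 to 3. RD replicate 3 and HCD replicate 2 were low and close to each other, and the other 4 libraries lay above both, so that the diets overlapped fully. The log2 fold change was 0.34 (SE 0.39, adjusted p = 0.660, edgeR), with a 95% interval of 0.686 to 2.34 for the fold. The SD within each diet, 69.3 CPM under RD and 118 CPM under HCD, was larger than the difference between the means of 205 and 260 CPM.

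Gckr (ENSMUSG00000059434, chr5:31297443-31327314, plus strand) encodes this nuclear regulatory protein. It was at 141, 134 and 143 CPM under RD, where its coefficient of variation of 3.49% was the lowest of the 8, and at 165, 104 and 147 CPM under HCD. The HCD libraries lay on either side of the RD range. Its log2 fold change was -0.0044 (SE 0.18, adjusted p = 0.990), and the interval of the fold, 0.753 to 1.32, holds changes of that size in either direction.

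Khk (ENSMUSG00000029162, chr5:30921431-30931248, plus strand), the fructose kinase, was the most abundant of the 8 per length. It was at 343, 423 and 293 CPM under RD and at 624, 397 and 695 CPM under HCD. HCD replicates 1 and 3 were above all RD libraries, while HCD replicate 2 lay below RD replicate 2. The log2 fold change was 0.70 (SE 0.24, unadjusted p = 0.0173, adjusted p = 0.146, edgeR), which is 1.62-fold with an interval of 1.12 to 2.36. DESeq2 gave nearly the same log2 fold change, 0.68, and called it with an adjusted p of 0.0278. Leaving out each library in turn kept the log2 fold change between 0.52 and 0.90 and the adjusted p between 0.0613 and 0.365, and without HCD replicate 1, the library that differed in sex, it was 0.63 (adjusted p = 0.218).

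Tkfc, the triokinase that phosphorylates the glyceraldehyde formed in fructose breakdown, was read beside Khk. It was at 391, 463 and 300 CPM under RD and at 542, 379 and 553 CPM under HCD. HCD replicate 2 was within the RD range, as for Khk, and the log2 fold change of 0.35 (SE 0.22, adjusted p = 0.390) did not pass the test. In both genes the lowest HCD library was replicate 2.

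Pfkl (ENSMUSG00000020277, chr10:77986947-78010083, minus strand) encodes the liver subunit of phosphofructokinase 1, which commits fructose 6-phosphate to glycolysis. Its level was 41.0, 41.0 and 44.9 CPM under RD and 44.5, 45.9 and 35.3 CPM under HCD. The diets overlapped, and HCD replicate 3 was the lowest of the 6 libraries. The log2 fold change was -0.012 (SE 0.14, adjusted p = 0.970), with the fold between 0.790 and 1.24.

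Pfkfb1 (ENSMUSG00000025271, chrX:150588229-150643878, plus strand) encodes the liver form of the bifunctional enzyme that makes and removes fructose 2,6-bisphosphate, the allosteric activator of phosphofructokinase 1. It was at 44.0, 26.7 and 42.0 CPM under RD and at 6.72, 9.17 and 20.4 CPM under HCD. All 3 HCD libraries were below all 3 RD libraries, and the nearest were HCD replicate 3 and RD replicate 2. The log2 fold change was -1.65 (SE 0.39, unadjusted p = 0.00256, adjusted p = 0.0602, edgeR), the largest of the 8 in size, and corresponds to 3.14-fold lower under HCD. An exact two-sided permutation test on log2 CPM gave p = 0.1, the smallest that 3 against 3 libraries allow.

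The call for Pfkfb1 depended on the processing, while its direction was negative under all alternatives run. DESeq2 called it with an adjusted p of 5.86e-05, edgeR without the filter on low counts with 0.00856 and edgeR without normalization factors with 0.0413, at log2 fold changes of -1.66, -1.67 and -1.75. Without HCD replicate 3 the log2 fold change was -2.26 and was called (adjusted p = 0.0286), and leaving out any other library gave values between -1.85 and -1.35 with an adjusted p of 0.0905 or more. Pfkfb1 lies on the X chromosome and HCD replicate 1 differed in sex. Without that library the log2 fold change was -1.35 (adjusted p = 0.0905), and the other HCD libraries were still below the RD libraries.

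Pklr (ENSMUSG00000041237, chr3:89136142-89146784, plus strand) encodes the pyruvate kinase of liver and red cells, the last enzyme of glycolysis. Its level was 144, 175 and 79.8 CPM under RD and 187, 83.6 and 171 CPM under HCD. The lowest library of each diet, RD replicate 3 and HCD replicate 2, were close to each other, and the other 4 ran from 144 to 187 CPM across both diets. The log2 fold change was 0.15 (SE 0.35, adjusted p = 0.843) and its sign turned without RD replicate 3, at -0.12, and without HCD replicate 1, at -0.061. Pklr is also expressed in red cells, of whose 5 tested genes 2 were called as given above, and their part in its level was not tested.

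Mlxipl (ENSMUSG00000005373, chr5:135089890-135138382, plus strand), which encodes ChREBP, was at 216, 254 and 242 CPM under RD and at 226, 194 and 237 CPM under HCD. The spread was small, with a coefficient of variation of 8.22% under RD and 10.1% under HCD, and the diets overlapped. Its log2 fold change was -0.12 (SE 0.14, adjusted p = 0.688), and the fold lay between 0.735 and 1.16. The partner Mlx was at 30.0, 29.4 and 31.7 CPM under RD and at 22.0, 28.5 and 31.3 CPM under HCD. Its log2 fold change was -0.16 (SE 0.16, adjusted p = 0.613). The paralog Mlxip, which encodes the related factor MondoA, was at 4.66, 8.23 and 7.86 CPM under RD and at 5.76, 4.89 and 4.05 CPM under HCD. For Mlxip the log2 fold change was -0.49 (SE 0.30, adjusted p = 0.390). The RNA level does not show whether ChREBP was active, since sugar phosphates act on the protein.

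Txnip (ENSMUSG00000038393, chr3:96557957-96561883, plus strand) encodes a thioredoxin-binding arrestin that lowers glucose uptake and is among the ChREBP targets most responsive to sugar. It was at 30.8, 32.6 and 27.1 CPM under RD and at 80.6, 26.5 and 30.7 CPM under HCD. HCD replicate 1 alone was high, and the other HCD libraries were within 1 CPM of the RD range. The log2 fold change of 0.61 (SE 0.38, adjusted p = 0.400) rested on that library, and without it the value was -0.078 (adjusted p = 0.822). Arrdc4, a related arrestin with which Txnip shares its response to sugar, was at 5.86, 9.56 and 10.1 CPM under RD and at 20.1, 4.55 and 6.40 CPM under HCD. HCD replicate 1 was again the only high library, and the log2 fold change of Arrdc4 turned from 0.30 (adjusted p = 0.779) to -0.64 (adjusted p = 0.326) without it.

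**Figure D2:**
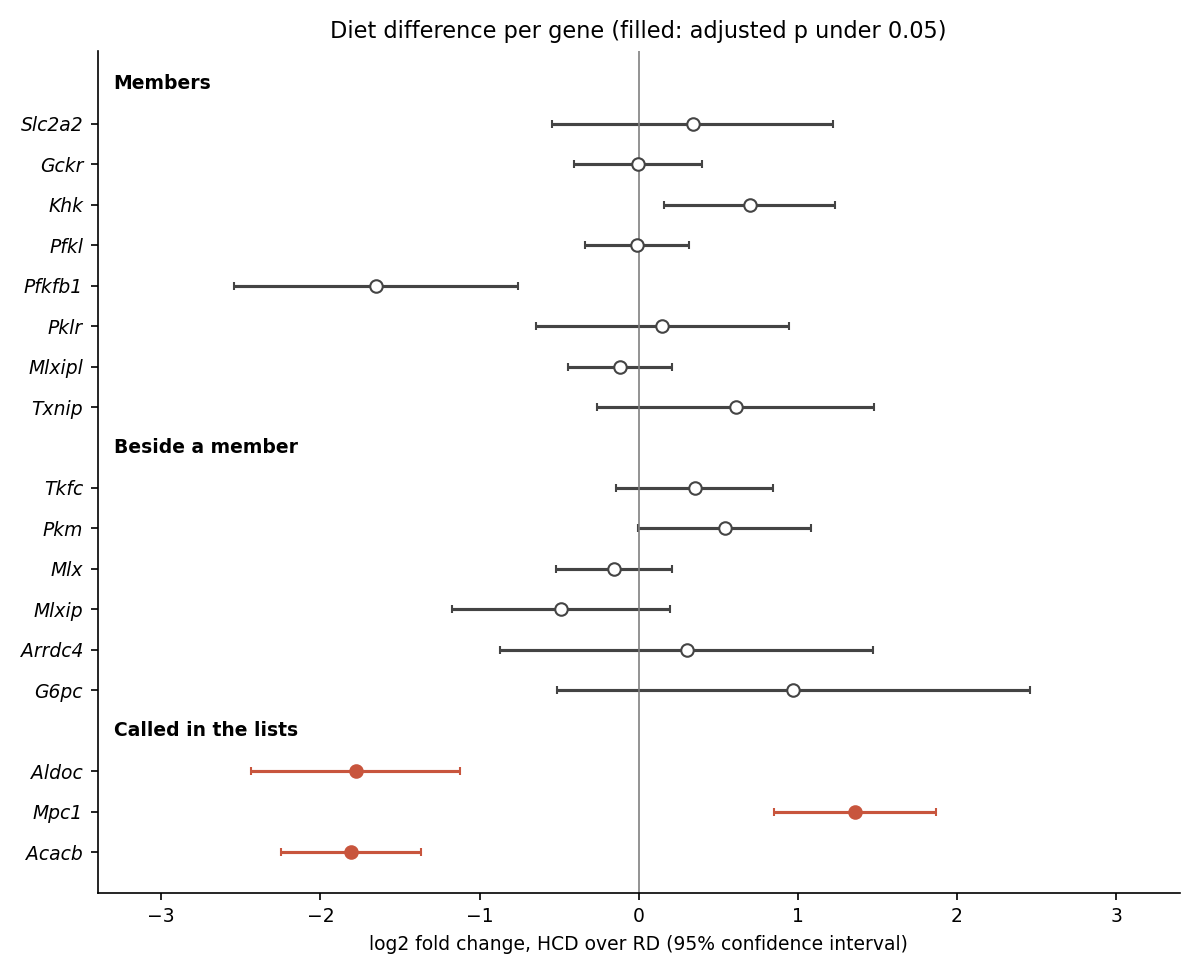
log2 fold change of HCD over RD (horizontal axis) with its 95% confidence interval for the 8 genes, for 6 genes that act directly beside them and for the 3 genes called in the pathway lists, from edgeR over all 6 libraries. Filled points passed an adjusted p under 0.05; among the 8 members the interval leaves out 0 only for Khk (0.16 to 1.24) and Pfkfb1 (-2.54 to -0.76), and none is filled.

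The rest of the pathway was read from 3 lists. Of 39 genes of glycolysis and pyruvate use other than the 8, 37 were tested and 2 were called, against 3.27% of all genes, with a median log2 fold change of 0.040. Before adjustment 3 higher and 4 lower genes had p of at most 0.05, against 20.9% of all genes. DESeq2 called 4, 2 higher and 2 lower, against 6.97%. Mpc1, a subunit of the carrier that brings pyruvate into mitochondria, rose from 23.1, 21.6 and 21.7 CPM under RD to 67.9, 37.2 and 64.8 CPM under HCD. All HCD libraries of Mpc1 were above the RD libraries (log2 fold change 1.36, SE 0.22, adjusted p = 0.0228). Aldoc, an aldolase best known from brain, fell from 17.4, 10.8 and 15.2 CPM to 2.93, 5.38 and 4.46 CPM, again without overlap (log2 fold change -1.78, SE 0.29, adjusted p = 0.0223). Both calls were lost without any 1 of the RD libraries and without HCD replicate 3, at adjusted p-values up to 0.119 for Mpc1 and 0.112 for Aldoc, with the direction kept. With replicate number as a block in edgeR, Mpc1 (log2 fold change 1.31, adjusted p = 0.0504) and Aldoc (-1.78, adjusted p = 0.0669) also missed the threshold. Pkm, the pyruvate kinase of most other tissues, was at 8.60, 14.4 and 12.8 CPM under RD and at 19.8, 18.6 and 13.4 CPM under HCD. Its log2 fold change was 0.54 (SE 0.24, adjusted p = 0.243).

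Of 19 genes of hexose entry and of fructose and galactose breakdown, 14 were tested and edgeR called 0. Before adjustment 5 had p of at most 0.05, 4 of them higher and 1 lower, against 20.9% of all genes. DESeq2 called 1, against 6.97%, and limma called 0. The median log2 fold change of the 14 was 0.21. The 5 genes removed by the filter on low counts were the transporters Slc2a3, Slc2a6, Slc2a10, Slc2a12 and Slc2a13.

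Of 19 partners and other targets of ChREBP, 18 were tested and 1 was called, against 3.27% of all genes. Acacb, the acetyl-CoA carboxylase whose malonyl-CoA restrains fatty acid entry into mitochondria, fell from 71.2, 88.5 and 110 CPM under RD to 23.1, 30.1 and 23.9 CPM under HCD. The diets did not overlap (log2 fold change -1.81, SE 0.19, adjusted p = 0.00523), and Acacb passed under each alternative and without any 1 library, with adjusted p-values up to 0.0315. The median log2 fold change of the list was -0.19, and before adjustment 4 higher and 3 lower genes had p of at most 0.05, beside the same 20.9%. DESeq2 called 5 genes of the list, 2 higher and 3 lower, against 6.97%. G6pc, the glucose-releasing phosphatase that ChREBP and fasting signals both raise, was at 42.4, 334 and 436 CPM under RD and at 687, 434 and 471 CPM under HCD. RD replicate 1 was far below the other 5 libraries, and the log2 fold change was 0.97 (SE 0.65, adjusted p = 0.432). Of 17 genes that fasting and PPAR alpha are known to raise, 4 were called, against 3.27% of all genes, and all 4, Ehhadh, Acot1, Cyp4a14 and Cyp4a10, rose under HCD. Of the 17 genes 13 were higher and 4 lower, with a median of 0.65, and DESeq2 called 4. The level of Cyp4a14 was 2054 CPM in HCD replicate 1, the library that differed in sex, and 202 and 201 CPM in the other HCD libraries. DESeq2 gave Cyp4a14 no adjusted p, and the part of sex in the values of this list was not tested. The time of day and the feeding state at collection were not given in the sources used here, and the study describes a somewhat lower food intake on the HCD. Of the 13 clock genes tested edgeR called 0, with 8 at p of at most 0.05 before adjustment, against 20.9% of all genes, and 5 called by DESeq2, against 6.97%. The part of feeding state and clock time in the values of the 8 genes was not tested.

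Compared with each other per length, Khk was the highest of the 8 under both diets. Under RD it was at 286 ± 47.7 FPKM (mean ± SD, n = 3). Mlxipl, Pklr, Slc2a2 and Gckr followed at 62.7, 59.7, 52.0 and 46.9 FPKM, and the ranges of each adjacent pair overlapped. Txnip, Pfkfb1 and Pfkl were at 14.1, 13.7 and 9.27 FPKM, with overlap between Txnip and Pfkfb1 and between Pfkfb1 and Pfkl. Under HCD Khk was at 474 ± 137 FPKM, and Pklr, Slc2a2, Mlxipl and Gckr at 67.9, 67.5, 58.9 and 47.7 FPKM, again with overlap between neighbours. Txnip was at 22.0 FPKM, overlapping Gckr through HCD replicate 1, and Pfkl at 9.32 FPKM. Pfkfb1 was the lowest, at 4.48 ± 2.75 FPKM, and its highest HCD library, at 7.62 FPKM, was below the lowest of Pfkl, at 7.94 FPKM.

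The liver forms were next set against their relatives from other tissues, as shares of the summed FPKM of the family. Pklr made up 96.3%, 94.96% and 90.6% of pyruvate kinase FPKM (Pklr and Pkm) under RD and 93.6%, 87.4% and 95.2% under HCD. Pfkl made up 50.5% to 58.6% of the 3 phosphofructokinases under RD and 54.5% to 56.1% under HCD. Pfkfb1 made up 68.5%, 68.4% and 85.6% of the 4 bifunctional enzymes under RD and 57.0%, 57.3% and 72.7% under HCD. Its share was therefore lower by 11.9 percentage points on average with overlapping ranges, whereas its own level did not overlap between the diets. The share also depends on the other 3 forms, whose log2 fold changes were negative too, from -1.17 to -0.10, with none called. The difference of -11.9 became -6.15 without RD replicate 3 and -17.0 without HCD replicate 3. Slc2a2 made up 56.3% to 70.9% of 9 hexose transporters under RD and 53.3% to 75.3% under HCD. For these 4 measures the exact two-sided permutation test gave p-values from 0.3 to 0.8, all 0.8 after Benjamini-Hochberg adjustment over the 6 measures tested. With 3 libraries a diet this test cannot go below 0.1, so it could not have called a difference of any size.

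**Figure D3:**
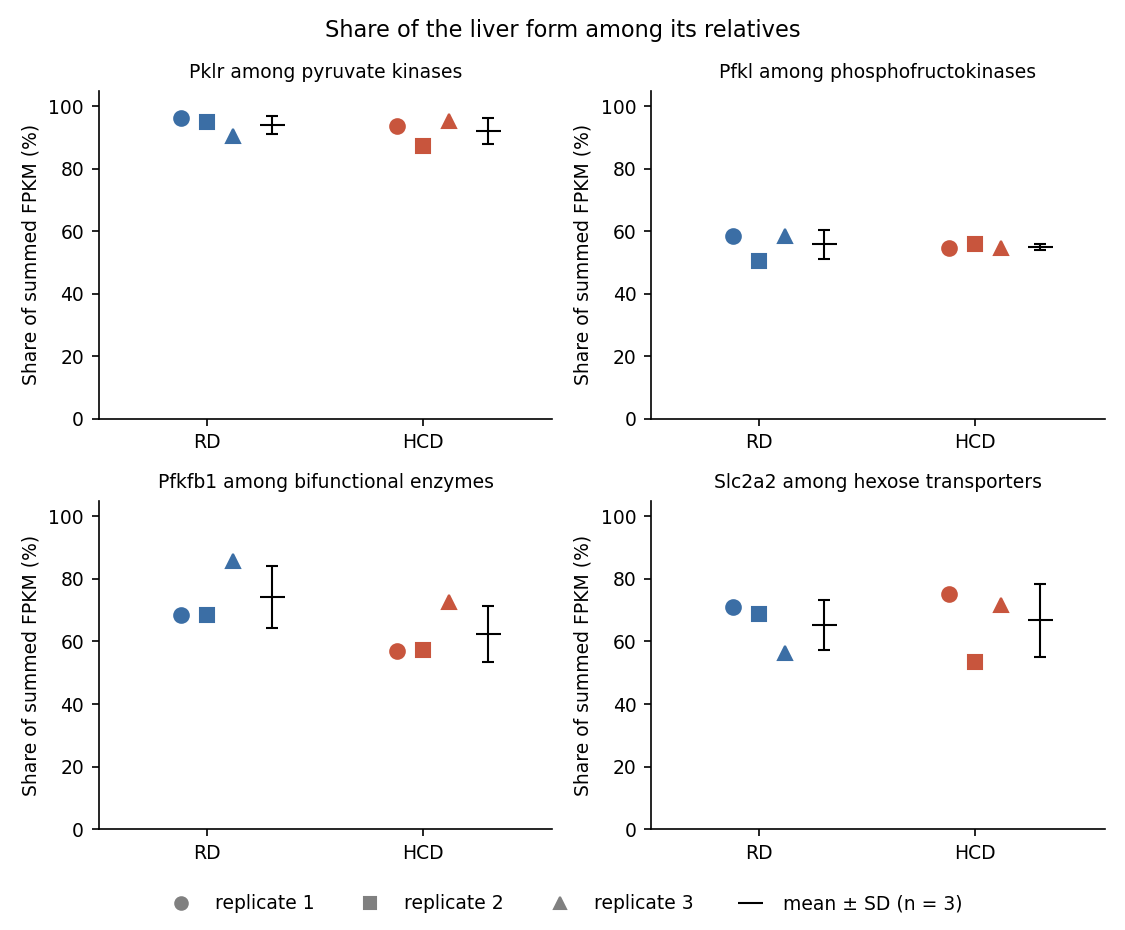
Share of each liver form in the summed FPKM of its family (percent), in the 3 RD and 3 HCD libraries, with symbols for the replicate and bars for the mean ± SD. All 4 panels overlap between the diets; Pklr stays between 87.4% and 96.3%.

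Within the diets, Slc2a2, Pklr and Khk were low in the same libraries. On the log2 CPM scale, and relative to the mean of the diet, Slc2a2 was at -0.63 in RD replicate 3 and at -0.94 in HCD replicate 2. Pklr was at -0.66 and -0.73 in the same libraries, and Khk at -0.25 and -0.48. Across the 6 libraries the deviations from the diet mean had a Pearson r of 0.96 between Slc2a2 and Pklr, 0.93 between Khk and Pklr and 0.90 between Slc2a2 and Khk, the 3 highest of the 28 pairs. Over all 28 pairs r was positive for 20 and negative for 8. Pfkl went the opposite way, highest of its diet in RD replicate 3 (0.085) and HCD replicate 2 (0.14), with r of -0.73 with Khk, -0.62 with Slc2a2 and -0.72 with Pfkfb1. These values rest on 6 libraries, of which 4 are free to vary once the diet means are removed, they share library depth and scaling, and no p is given. Txnip was also lowest in RD replicate 3 (-0.15) and HCD replicate 2 (-0.60), with r of 0.75 with Gckr and 0.59 with both Slc2a2 and Pklr, and its widest deviation was 0.99 in HCD replicate 1. For Pfkfb1 the widest was 0.88 in HCD replicate 3, and its r with Txnip was -0.60. Mlxipl stayed between -0.17 and 0.12 in the 6 libraries. The tested gene with a mean of at least 5 CPM whose level was most like that of each member over the 6 libraries, among 9117 genes searched, was Dclre1a for Slc2a2 (r = 0.982), Sptbn1 for Gckr (r = 0.997), Pcna for Khk (r = 0.990), Malt1 for Pfkl (r = 0.996), Mst1 for Pfkfb1 (r = 0.993), Gtf2ird2 for Pklr (r = 0.981), Zbtb45 for Mlxipl (r = 0.986) and Cnst for Txnip (r = 0.984). None of these 8 genes was called.

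**Figure D4:**
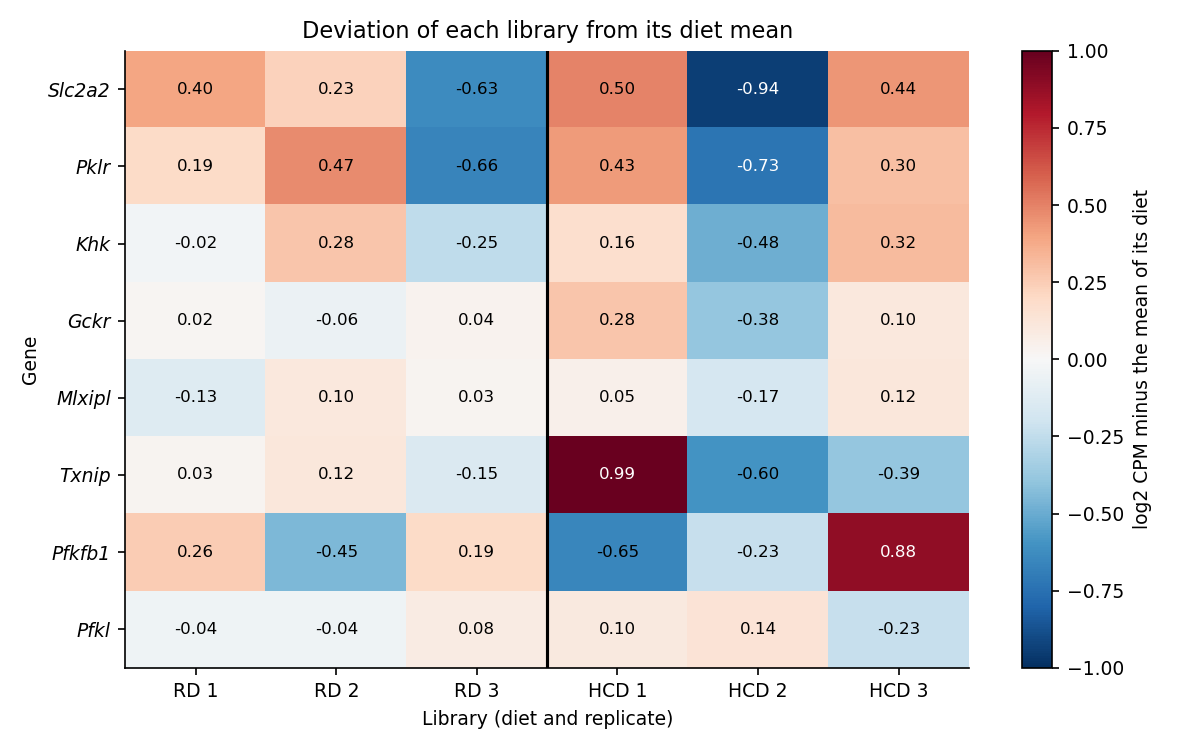
Deviation of log2 CPM from the mean of its diet (colour and printed value) for each of the 8 genes (rows) in each library (columns), with a line between RD and HCD. Slc2a2, Pklr and Khk are lowest in RD replicate 3 and HCD replicate 2, and Txnip is highest in HCD replicate 1.

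Parts of 4 of the 8 genes are overlapped on the opposite strand by another annotated gene, and the sources used here do not say whether counting used the strand, so reads of the pairs cannot be told apart there. Pklr shares 711 exonic bases with Hcn3, whose counts were 2.18% to 7.23% of those of Pklr and were highest in HCD replicate 1 and lowest in RD replicate 3. Pfkfb1 shares 123 bases of its 4017 with Apex2. Apex2 had 17.4% to 36.0% of the counts of Pfkfb1 under RD and 55.2% to 85.7% under HCD, and its own log2 fold change was -0.12 (adjusted p = 0.877). Txnip shares 606 bases with Gm15441, which had 0, 0 and 2 counts under RD and 15, 18 and 5 under HCD, at most 4.69% of the counts of Txnip. Mlxipl shares 235 bases with Gm43500, which had 0 to 14 counts. Slc2a2, Gckr, Khk and Pfkl had no such neighbour.

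**Figure D5:**
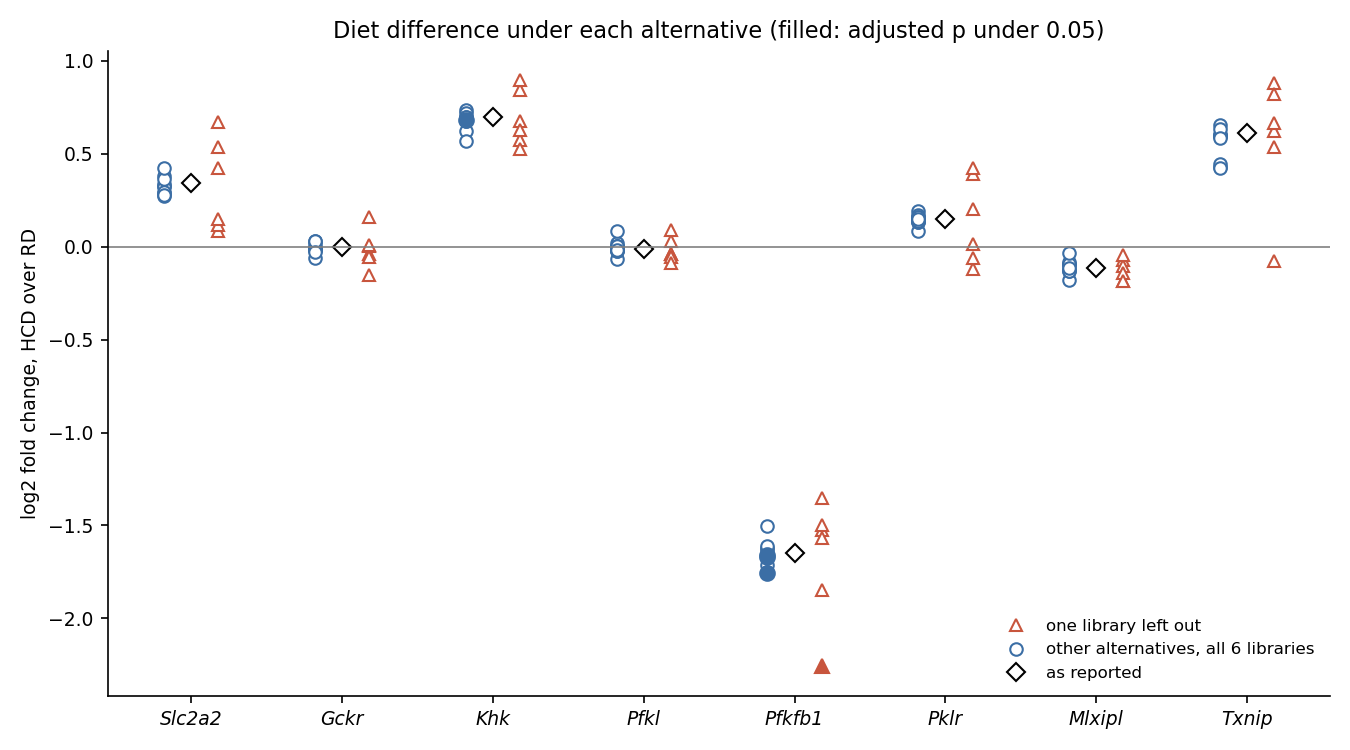
log2 fold change of HCD over RD (vertical axis) for each of the 8 genes as reported (diamonds), under the 10 alternatives that use all 6 libraries (circles) and with 1 library left out in turn (triangles), where filled symbols had an adjusted p under 0.05. Pfkfb1 stays between -2.26 and -1.35 and Khk between 0.52 and 0.90, while Gckr, Pfkl, Pklr and Txnip have values on both sides of 0.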

How the data were processed

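Liver RNA of 6 libraries was sequenced, and the diet and replicate number of each were read from the labels. The authors deposited 1 table of raw counts per gene and 1 of FPKM values, that is counts scaled to library size and gene length. Per the labels, STAR, HTSeq, DESeq2, edgeR and the build GRCm39 were used, with no versions. The deposited FPKM values nevertheless implied gene lengths equal, within 0.1%, to the exon lengths of GENCODE M21 (GRCm38) for 94.6% to 94.8% of genes with at least 100 counts and for all 8 members, and positions are given on that build. The deposited columns of the authors' own comparison (log2 fold change, p-value, adjusted p-value) were not used.

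Counts were tested with edgeR 4.0.16 (filterByExpr, TMM, quasi-likelihood F test, two-sided, all 6 libraries, no covariate) and p-values were adjusted by Benjamini-Hochberg over all 13105 tested genes. Genes were called at an adjusted p under 0.05 with no minimum fold, the threshold that the study states. The study reports many more genes at that threshold than were called here, and the reason was not tested. Alternatives were DESeq2 1.42.0, limma 3.58.1 on log2(FPKM + 1) and log2(FPKM + 0.1), other scalings and filters, offsets for gene length, a replicate block and leaving out each library. The scripts were tested on simulated data. Log2 CPM used a constant of 0.5. Members and gene lists were chosen with earlier results of these data known. All 8 members were named with each library's value, as were the called genes of the 3 pathway lists and Pkm, Tkfc, Mlx, Mlxip, Arrdc4 and G6pc. Of other lists called genes were named where 5 or fewer. Some genes of these lists and measures resting on them are not reported here. At these depths the members had 133 to 12342 counts per library, and the part of depth in the spread between libraries was not tested.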

Additional observations from a re-analysis of the deposited data

How the results depend on the processing

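With all 6 libraries, Slc2a2, Mlxipl, Pklr and Txnip kept their sign and missed the threshold under each of the 10 alternatives. Khk passed only with DESeq2 (log2 fold change 0.68), and Pfkfb1 passed with library sizes alone (-1.75), DESeq2 (-1.66) and no filter on low counts (-1.67). The sign of Gckr turned with upper-quartile factors (0.032), a mean of at least 50 counts (0.014) and length offsets (0.032), and that of Pfkl with the same 3 (0.022, 0.0036 and 0.084) and with limma on log2(FPKM + 1) (0.0020) and log2(FPKM + 0.1) (0.0017). Members called numbered 1, 2 and 1 with library sizes alone, DESeq2 and no filter, and 2 with p of at most 0.05 before adjustment. Genes called overall numbered 992 with DESeq2, 649 with no filter, 251 with length offsets and 2739 at the unadjusted threshold. In the lists, DESeq2 called 4 of the 39 glycolysis, 1 of the 19 hexose and 5 of the 19 ChREBP genes, against 6.97% of the genes it adjusted over. No filter called 4 of 39 glycolysis, 0 of 19 hexose and 4 of 19 ChREBP genes, against 649 of 20673 genes. The unadjusted threshold gave 7 of 37, 5 of 14 and 7 of 18, against 20.9% of the tested genes. The causes were not tested. Same-numbered RD and HCD libraries had r of -0.084, 0.12 and -0.030 between their deviations from the diet means, and other pairs ran from -0.14 to 0.15. With so few libraries this does not settle whether replicate numbers pair them. With the replicate block 136 genes were called, with no member and 0 glycolysis genes, and Pfkfb1 was at -1.75 and Khk at 0.68.

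With 1 library left out in turn, which leaves 2 against 3, genes called ran from 36 (without RD replicate 1) to 335, members called from 0 to 1, glycolysis genes from 0 to 2 and ChREBP genes from 1 to 2, while hexose genes stayed at 0. Genes called overall also numbered 51, 146 and 103 without RD replicates 2 and 3 and HCD replicate 3. Log2 fold changes ran from -0.15 to 0.16 for Gckr (reversed values 0.0026, 0.010 and 0.16), -0.088 to 0.087 for Pfkl (reversed values 0.029 and 0.087), -0.12 to 0.42 for Pklr (reversed values -0.12 and -0.061), -0.078 to 0.88 for Txnip, 0.084 to 0.67 for Slc2a2, -0.18 to -0.043 for Mlxipl, 0.52 to 0.90 for Khk and -2.26 to -1.35 for Pfkfb1. Arrdc4 ran from -0.64, reversed without HCD replicate 1, to 0.65. The median of the glycolysis list ran from -0.075 to 0.093, that of the hexose list from 0.090 to 0.29, that of the ChREBP list from -0.30 to -0.063 and that of the 8 members from -0.069 to 0.29. Differences in isoenzyme share moved by less than 1 SD, but changed sign for Pklr (-3.56 to 0.44 percentage points), Pfkl (-3.52 to 0.51) and Slc2a2 (-3.04 to 8.18). Each of the 8 genes had at least 133 counts in every library, and the part of depth in these ranges was not tested.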
